A study of Mus musculus with 12 samples.

Results

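The 6 genes of the platelet-derived growth factor (PDGF) system, taken by gene symbol from tables of 53392 genes, were followed through 12 RNA-seq libraries of mouse embryonic facial mesenchyme. They are the receptor genes Pdgfra and Pdgfrb and the ligand genes Pdgfa, Pdgfb, Pdgfc and Pdgfd. All embryos were on the 129S4 background, and there were 4 groups of 3 biological replicates. Palatal shelf mesenchyme at E13.5 (embryonic day) came from Pdgfra+/+ embryos (wild-type) or PdgfraPI3K/PI3K embryos (PI3K). Maxillary process mesenchyme at E11.5 came from Srsf3fl/fl;Wnt1-Cre+/+ embryos (control) or Srsf3fl/fl;Wnt1-Cre+/Tg embryos (labelled Srsf3 cKO), so both maxillary groups carried the floxed Srsf3 alleles. Wnt1-Cre is a transgene active in the neural crest lineage, and cells of other lineages in the dissected tissue keep Srsf3. The labels do not say whether embryos were pooled.

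PDGF ligands are secreted dimers that bind a pair of receptor tyrosine kinases, PDGFRα and PDGFRβ. Binding brings the receptors together, they phosphorylate each other on tyrosines, and enzymes such as phosphatidylinositol 3-kinase (PI3K) dock there. PDGF-A and PDGF-C act mainly through PDGFRα, PDGF-B binds both receptors, and PDGF-D acts mainly through PDGFRβ. In the developing face, neural crest mesenchyme carries PDGFRα, and epithelium is a known source of PDGF-A.

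The PI3K allele is known as a form of Pdgfra in which the tyrosines that dock PI3K are replaced. The stretch of the reference gene that encodes them is shown because it is the part of the receptor that the palatal shelf comparison is about. It lies at chr5:75182995-75183069 (GRCm38, + strand) in exon 16 of the 23 exons of Pdgfra-201 and covers codons 726 to 750. Capitals mark the tyrosine codons 731 and 742, each followed 3 codons later by a methionine codon.
Pdgfra-201: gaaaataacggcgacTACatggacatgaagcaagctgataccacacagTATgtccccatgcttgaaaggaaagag
The 1089-codon reading frame holds 4 tyrosine codons with that spacing, at 731, 742, 896 and 926. These are reference bases, and the mutant sequence was not read here.

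GENCODE M21 lists 9 Pdgfra transcripts. The 2 long ones, Pdgfra-201 (6549 nt) and Pdgfra-202 (6834 nt), have 23 exons each, differ in their first exon and encode the whole receptor. Pdgfra-205 (4088 nt) and Pdgfra-208 (2876 nt) hold the stretch above but end in the intron after exon 16, 989 and 375 bases past it. Their stop codon lies 48 bases past that exon, so their reading frame stops within the kinase domain. The other 5 transcripts are 442 to 1561 nt long and lack the stretch.

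**Figure D1:**
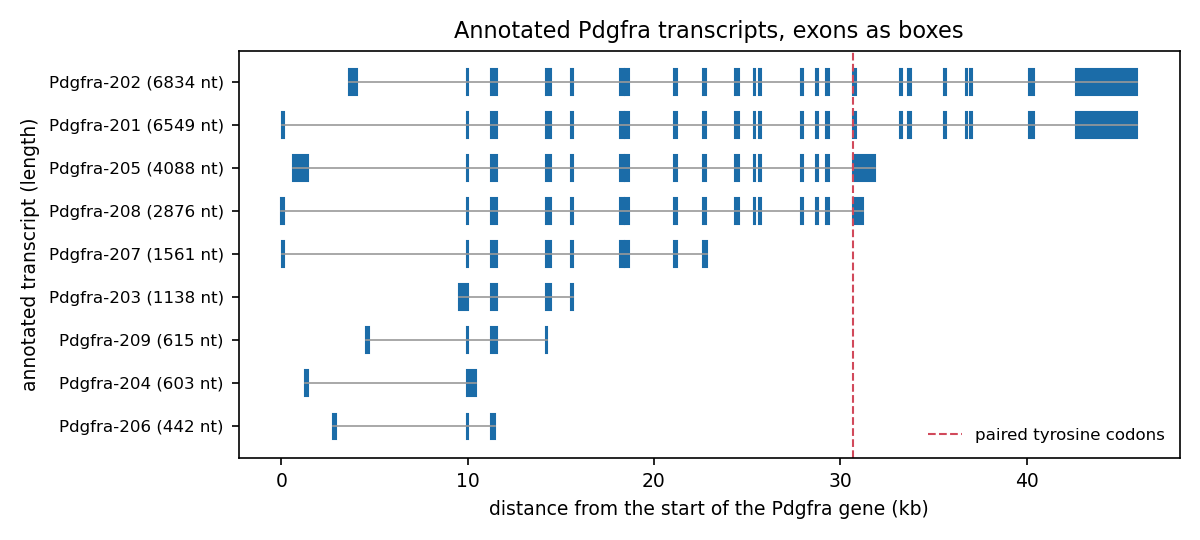
Annotated Pdgfra transcripts drawn by distance from the gene's start (kb), with exons as boxes and the length in nt beside each name. The dashed line marks the paired tyrosine codons, which 4 of the 9 transcripts hold, and the 2 longest transcripts run on past it through a long last exon.

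The libraries held 30509338 to 37406960 estimated counts in the palatal shelf and 15932541 to 27887654 in the maxillary process. Markers of mesenchyme were high in every library, with a summed level of 10580 to 18670 CPM (counts scaled to library size) in the palatal shelf and 4643 to 7976 CPM in the maxillary process. Although the ectoderm was digested away, 10 ectoderm markers summed to 416 to 1004 CPM in the palatal shelf, against 2.03 to 22.2 CPM in the maxillary process. Skeletal muscle markers summed to 2.50 to 60.9 CPM in wild-type and 37.4 to 285 CPM in PI3K shelves. Srsf3 itself was not lower in the libraries labelled Srsf3 cKO, with 597, 578 and 547 CPM in control and 468, 669 and 622 CPM in Srsf3 cKO libraries (log2 difference 0.03, SE 0.14, edgeR quasi-likelihood adjusted p = 0.954). A gene total does not show which exons the reads came from.

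In the PI3K palatal shelf, counts of Pdgfra overlapped those of wild-type, while the mean length of the transcripts behind them was estimated as lower. Counts of Pdgfra were 503, 470 and 501 CPM in wild-type and 452, 480 and 561 CPM in PI3K libraries, and the groups overlapped. The log2 difference in counts was 0.02 (SE 0.10, 95% interval -0.22 to 0.26, edgeR quasi-likelihood test, Benjamini-Hochberg adjusted p = 0.9997). TPM divides counts by transcript length, and on that scale Pdgfra was at 140, 130 and 145 TPM in wild-type and 186, 200.5 and 243 TPM in PI3K libraries. Here the groups did not overlap, and the ratio of mean TPM was 1.52. The limma test on log2(TPM + 1) gave a difference of 0.59 that did not pass (adjusted p = 0.9998). Of all genes, 6.5% had TPM ranges that did not overlap between these groups.

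Those scales part because the ratio of count to TPM, which is proportional to the mean effective length of a gene's transcripts, was lower for Pdgfra in the PI3K libraries. Its log2 value, set relative to the median gene of each library, was 1.33, 1.36 and 1.32 in wild-type and 0.77, 0.75 and 0.76 in PI3K libraries. The PI3K values lay far below the wild-type values and varied little. The difference was -0.58 (SE 0.016, 95% interval -0.62 to -0.54, limma, Benjamini-Hochberg adjusted p = 0.002246 over 12907 genes). Pdgfra was the 1 gene that passed the threshold, 0.00775% of those tested, with the smallest p and the eleventh largest difference. With any of 4 of the 6 libraries left out (wild-type 1 and each PI3K library) the difference was -0.59 to -0.58 and the limma adjusted p was 0.05003 to 0.0617, just above the threshold of 0.05. With the replicate number as a block it was -0.58 with an adjusted p of 0.6386.

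**Figure D2:**
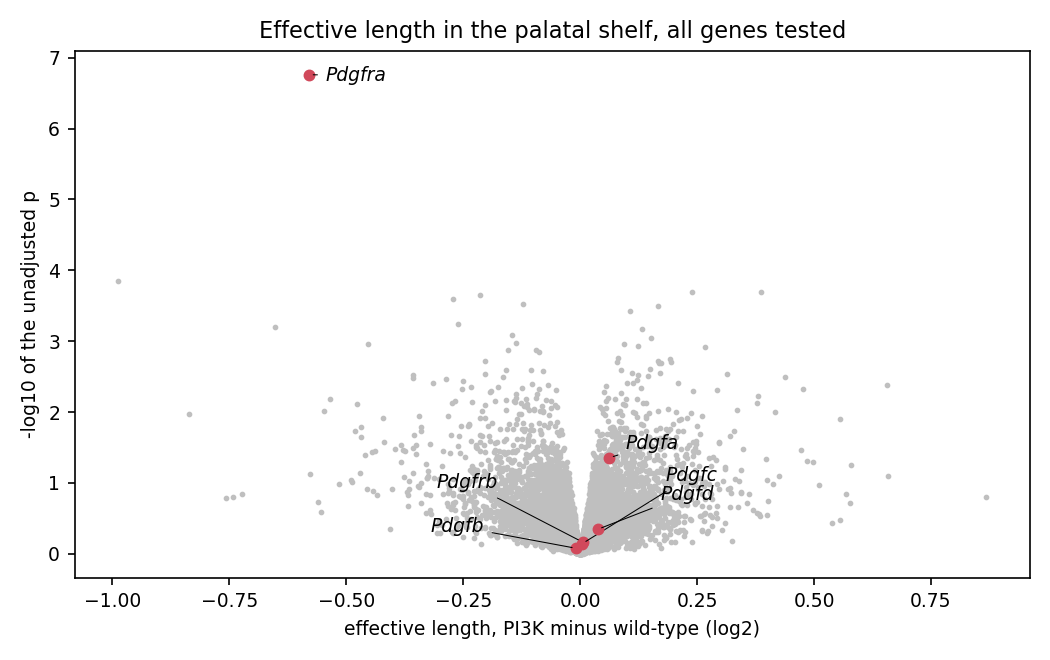
Each point is 1 of 12907 genes in the palatal shelf, with the PI3K minus wild-type difference in log2 effective length on the x axis and -log10 of the unadjusted limma p on the y axis. Pdgfra, at -0.58, stands above all other points, and the other 5 PDGF genes lie near 0.

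Expressed in nucleotides through 779 genes that have 1 annotated transcript, the TPM-weighted mean length of Pdgfra transcripts was 6231, 6318 and 6152 nt in wild-type palatal shelves. In PI3K shelves it was 4286, 4171 and 4205 nt. Control maxillary libraries gave 6080, 6103 and 6234 nt, and the Srsf3 cKO libraries gave 5949, 6121 and 5767 nt. The 3 PI3K libraries thus stood apart from the other 9, which were nearer to the long transcripts' length. If all reads came from the annotated transcripts, the 2 long ones made up 75.2% to 96.2% of Pdgfra TPM in wild-type and 3.02% to 62.9% in PI3K shelves. The shorter ones then came to 4.93 to 35.9 TPM in wild-type and 68.9 to 233 TPM in PI3K shelves. The PI3K allele is an engineered change in Pdgfra itself, and its messenger RNA need not match any annotated transcript. An engineered transcript and a shift among annotated ones cannot be told apart in these gene-level values.

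**Figure D3:**
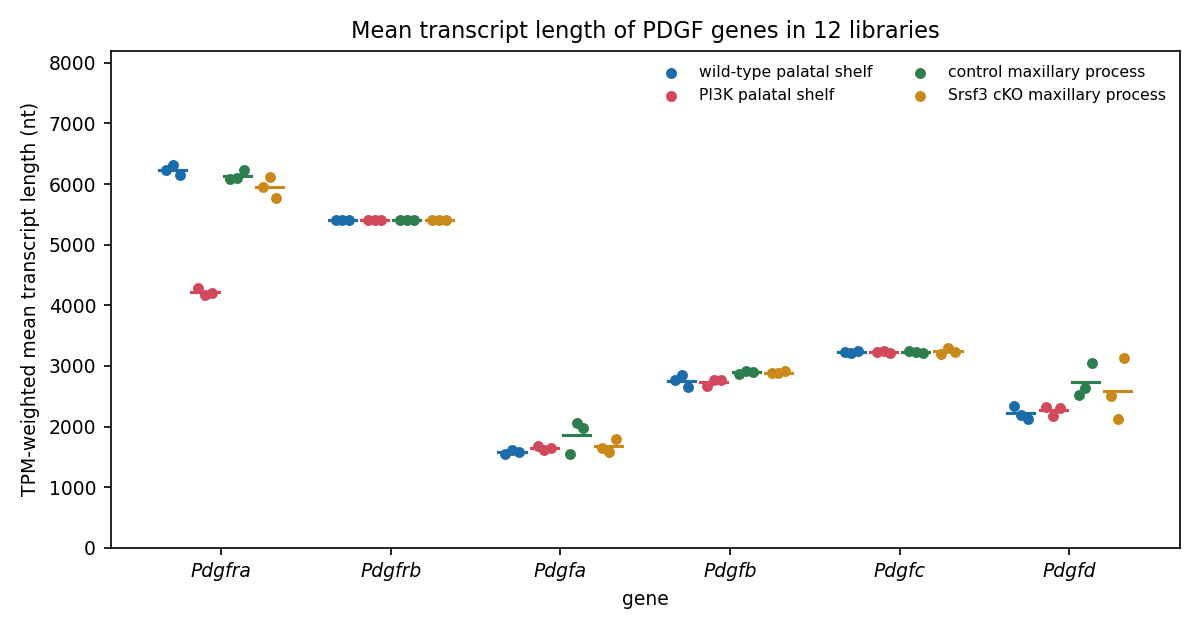
TPM-weighted mean transcript length (nt) of the 6 PDGF genes, with 1 point for each library and a bar at each group's mean of 3. Pdgfra in PI3K palatal shelves lies at 4171 to 4286 nt, against 5767 to 6318 nt in the other 3 groups.

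For Pdgfrb, which encodes the second receptor, the measure could hardly show such a shift, because its annotated transcripts are nearly equal in length. Its mean transcript length was 5403 nt in all 12 libraries, close to the 5407 and 5423 nt of its 2 annotated transcripts. Its counts were 319, 372 and 351 CPM in wild-type and 332, 324 and 343 CPM in PI3K shelves, which overlapped (log2 difference -0.06, SE 0.085, edgeR adjusted p = 0.9997). The ratio of Pdgfra to Pdgfrb therefore depended on the scale. In TPM it was 1.07 to 1.36 in wild-type and 1.73 to 2.13 in PI3K shelves, whereas in CPM it was 1.26 to 1.57 and 1.36 to 1.64.

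The ligand genes overlapped between wild-type and PI3K palatal shelves. Pdgfa was at 46.4, 75.3 and 58.0 CPM in wild-type and 53.9, 75.3 and 48.6 CPM in PI3K shelves (log2 difference -0.02, 95% interval -0.53 to 0.50). Pdgfc was at 80.8, 136 and 87.4 CPM in wild-type and 90.4, 115 and 140.3 CPM in PI3K shelves (0.18, interval -0.37 to 0.73).
Pdgfb, at 10.0 to 17.8 CPM in wild-type and 13.2 to 14.4 CPM in PI3K shelves, differed by -0.03 (interval -0.52 to 0.47). Pdgfd was the least abundant, at 2.29 to 3.83 CPM in wild-type and 3.01 to 4.76 CPM in PI3K shelves (0.41, interval -0.29 to 1.103). For all 6 PDGF genes the edgeR adjusted p was 0.9997, and 0 of 16525 genes passed (0.0% called). Without adjustment, 354 genes (2.14%) had a p under 0.05 and none of them was a PDGF gene. DESeq2 called 4 genes.

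Among the ligands, the mean transcript length of Pdgfa was 1553, 1614 and 1588 nt in wild-type and 1673, 1613 and 1645 nt in PI3K shelves, which overlapped. On the centred log2 scale its values lay just apart, the nearest at -0.7345 in wild-type and -0.7314 in PI3K shelves, as 6.36% of genes did not overlap there. The difference of 0.06 on that scale did not pass (SE 0.024, limma adjusted p = 0.9979). The other ligands differed by -0.01 to 0.04 on that scale, with overlapping groups.

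**Figure D4:**
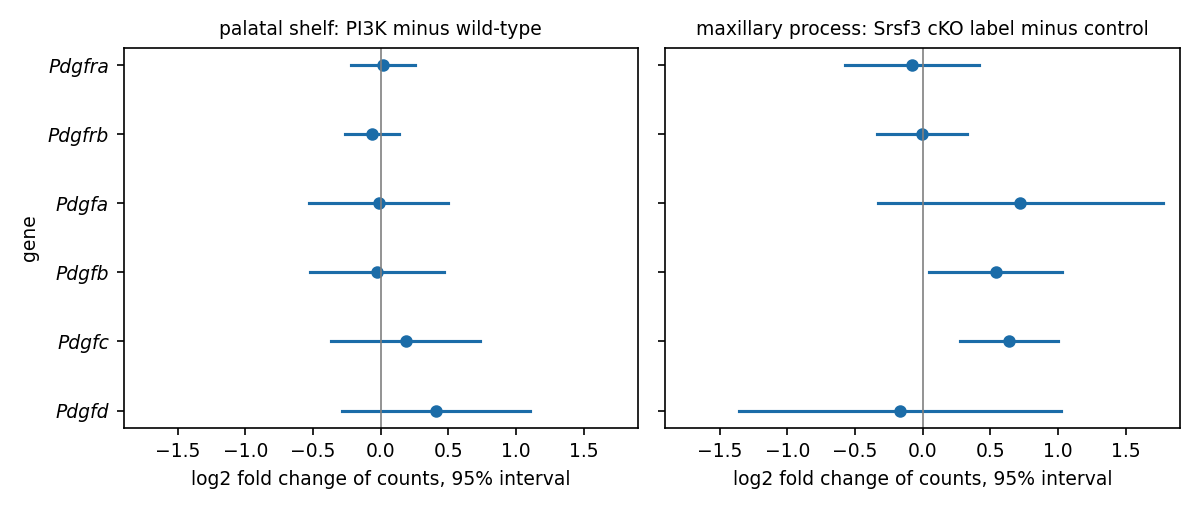
Log2 fold changes of counts (points) with 95% intervals (lines) from edgeR for the 6 PDGF genes in both comparisons, 3 libraries a group. In the palatal shelf every interval spans 0, and in the maxillary process those of Pdgfb and Pdgfc lie above it.

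In the maxillary process, Pdgfc and Pdgfb were higher in every library labelled Srsf3 cKO than in any control library, but neither passed the threshold over all genes. Pdgfc was at 31.8, 25.8 and 24.4 CPM in control and 48.2, 35.4 and 44.2 CPM in Srsf3 cKO libraries. The log2 difference was 0.64 (SE 0.15, 95% interval 0.28 to 1.00, edgeR adjusted p = 0.249), and DESeq2 gave 0.64 with an adjusted p of 0.02437. Pdgfb was at 11.2, 13.8 and 9.59 CPM in control and 21.1, 14.4 and 14.8 CPM in Srsf3 cKO libraries (0.54, SE 0.21, interval 0.05 to 1.03, edgeR adjusted p = 0.382). Without the first Srsf3 cKO library the Pdgfb difference was 0.34. Ranges that did not overlap were found for 18.1% of the 14254 genes tested, 8.76% with Srsf3 cKO higher, and 0.0842% of genes passed the threshold. The count was 12 genes, and 40 with the replicate number as a block, and no PDGF gene was called in either fit.

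Endothelial markers were higher in the same libraries. PDGF-B is known to be made by endothelium, and the 10 endothelial markers summed to 376, 377 and 360 CPM in control and 931, 538 and 483 CPM in Srsf3 cKO libraries. All 10 were higher in the Srsf3 cKO libraries, 9 of them at an unadjusted p under 0.05 (6.34% of all genes were higher at that p), with a median log2 difference of 0.79. In the palatal shelf the endothelial sums were 480 to 539 CPM in wild-type and 545.5 to 599 CPM in PI3K libraries. There 8 of 10 markers were higher, with a median of 0.14, while Pdgfb differed by -0.03. Of the maxillary libraries, the first Srsf3 cKO library had the highest endothelial sum and the highest level of each of the 6 PDGF genes. It was also highest for red blood cell (11750 CPM), pericyte and smooth muscle (486 CPM) and macrophage (46.3 CPM) marker sums. All 7 red blood cell markers and all 7 ectoderm markers tested were likewise higher in Srsf3 cKO libraries. Of 8 mesenchyme markers, 7 were lower in Srsf3 cKO libraries, 3 of them (Col1a2, Prrx1 and Prrx2) at an unadjusted p under 0.05, with a median log2 difference of -0.45. Their sums overlapped, at 4855 to 7976 CPM in control and 4643 to 5477 CPM in Srsf3 cKO libraries. The same first library was the lowest for Msx1, at 139 CPM against 411 and 462 CPM in the other Srsf3 cKO libraries, and for Prrx1, at 499 against 907 and 941 CPM. All 6 neuron and glia markers tested were lower in Srsf3 cKO libraries, with a median of -1.03. In bulk tissue, fewer cells of a type and less RNA per cell cannot be told apart, and the part of cell makeup in the ligand values was not tested.

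The receptors and the remaining ligands overlapped between the maxillary groups. Pdgfra was at 310, 335 and 403 CPM in control and 433, 239 and 319 CPM in Srsf3 cKO libraries (log2 difference -0.08, interval -0.58 to 0.41). Pdgfrb was at 222 to 259 CPM in control and 202 to 283 CPM in Srsf3 cKO libraries (-0.01, interval -0.34 to 0.33). Both receptors were highest in the first and lowest in the second Srsf3 cKO library, and without the first their differences were -0.32 and -0.17.
Pdgfa was nearly absent, at 2.99, 0.869 and 1.58 CPM in control and 3.41, 2.48 and 3.07 CPM in Srsf3 cKO libraries, or 15 to 68 estimated counts (0.72, interval -0.33 to 1.78). The difference was 1.276 without control 1 and 0.40 without control 2. The ectoderm markers beside it summed to 9.86, 3.30 and 2.03 CPM in control and 17.6, 10.4 and 22.2 CPM in Srsf3 cKO libraries, with 6 of 10 under 1 CPM in every control library. Pdgfd was at 0.766 to 1.85 CPM in control and 0.657 to 1.86 CPM in Srsf3 cKO libraries (-0.17, interval -1.36 to 1.03).

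Transcript length of the PDGF genes did not differ past the threshold between the maxillary groups. For Pdgfra the difference in log2 effective length was -0.04 (SE 0.028, interval -0.11 to 0.03, limma adjusted p = 0.859), and 1 of 11002 genes passed (0.00909%). Pdgfrb, Pdgfb and Pdgfc differed by 0.01 each. Pdgfa and Pdgfd had under 50 counts in at least 1 library and were not tested.

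Genes that act around the receptors were read from 5 lists with 76 entries, and none passed the edgeR threshold in either comparison. In the palatal shelf the list medians lay between -0.06 and 0.17, beside -0.01 for all genes. Slc9a3r1, a scaffold that binds PDGF receptors, was at 17.8, 17.7 and 20.4 CPM in wild-type and 21.9, 31.1 and 24.5 CPM in PI3K shelves (0.47, SE 0.15, adjusted p = 0.9997). Its groups did not overlap, as for 6.23% of genes.
The PI3K regulatory subunits Pik3r2 (-0.27, SE 0.15) and Pik3r3 (-0.31, SE 0.21) overlapped between groups. Of the early response genes, Ier3 and Srf were high in the second PI3K library alone, at 38.1 and 287 CPM, against 2.91 to 4.26 and 64.6 to 82.1 CPM in the other palatal libraries. Without that library their log2 differences went from 1.96 and 0.92 to -0.15 and -0.08. Pgf, a ligand of the related VEGF receptor FLT1, was at 4.91 to 5.48 CPM in wild-type and 6.16 to 9.85 CPM in PI3K shelves (0.54, SE 0.22).

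In the maxillary process, 12.2% of all genes had an unadjusted p under 0.05. So had 4 of 25 signalling genes (Pik3r3, Map2k1, Yes1 and Shc1), 5 of 12 ligand processing genes (Pcsk5, A2m, Plaur, Furin and Pcsk6), 2 of 14 turnover and inhibitor genes (Cbl and Spry4) and 1 of 9 early response genes (Myc). It held for 6 of 12 family relatives as well, and DESeq2 called 5 genes of the lists. The list of PDGF and VEGF family relatives had the highest median, 0.94, beside 0.00 for all genes, and all 12 tested members were higher in Srsf3 cKO libraries. Kitl, the ligand of the related receptor KIT, was at 16.4, 16.2 and 15.1 CPM in control and 106, 52.1 and 41.3 CPM in Srsf3 cKO libraries (2.06, SE 0.34, edgeR adjusted p = 0.103), and without the first Srsf3 cKO library it passed (1.56, edgeR adjusted p = 0.0182). The VEGF receptor genes Flt1 (1.42, SE 0.32, adjusted p = 0.198) and Kdr (0.99, SE 0.25, adjusted p = 0.26) also did not overlap between groups. Kdr is itself one of the endothelial markers above, and endothelium expresses Flt1. The other 4 lists had medians of 0.02 to 0.17.
Among ligand processing genes, the convertase gene Pcsk5 was at 28.5, 35.9 and 47.8 CPM in control and 22.6, 17.3 and 24.2 CPM in Srsf3 cKO libraries (-0.81, SE 0.21, adjusted p = 0.271). Among the inhibitors, Cbl, a ubiquitin ligase that acts on activated receptors, differed by 0.36 (SE 0.10, adjusted p = 0.292), and Spry4, a feedback inhibitor of receptor tyrosine kinases, by 0.68 (SE 0.21, adjusted p = 0.311). Of the signalling genes, Pik3r3 differed by -0.58 (SE 0.18, adjusted p = 0.306) and Map2k1 by 0.48 (SE 0.17, adjusted p = 0.35). Myc, an early response gene, differed by 0.63 (SE 0.22, adjusted p = 0.36).

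Levels were then set side by side across tissues in TPM, without a test, because the tissues came in separate tables and differed in stage and crosses too. In wild-type palatal shelves the order of mean TPM was Pdgfra (138), Pdgfrb (113), Pdgfa (72.7), Pdgfc (56.8), Pdgfb (9.46) and Pdgfd (2.36), and of neighbours in that order only Pdgfa and Pdgfc overlapped. In control maxillary processes it was Pdgfra (95.6), Pdgfrb (73.4), Pdgfc (14.6), Pdgfb (6.95), Pdgfa (1.93) and Pdgfd (0.943), with overlap between the receptors and between Pdgfa and Pdgfd.
Pdgfa stood furthest apart between tissues, at 57.0, 89.5 and 71.7 TPM in wild-type palatal shelves and 3.55, 0.745 and 1.51 TPM in control maxillary processes. The ratio of means was 37.6, and 183 of 15784 genes (1.16%) had a palatal excess at least as large. Without control 1 the ratio was 64.4, and with any other library left out it was 28.7 to 41.7. The ratio was 3.88 for Pdgfc, 2.50 for Pdgfd, 1.54 for Pdgfrb and 1.45 for Pdgfra, and 1.36 for Pdgfb, whose ranges overlapped. Thus 5 of 6 PDGF genes had ranges that did not overlap, where 55.6% of all genes did, and 36.7% with the palatal shelf higher, the direction of all 5. The ectoderm markers given above were also far higher in the palatal shelf, and their part in the Pdgfa level was not tested.

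**Figure D5:**
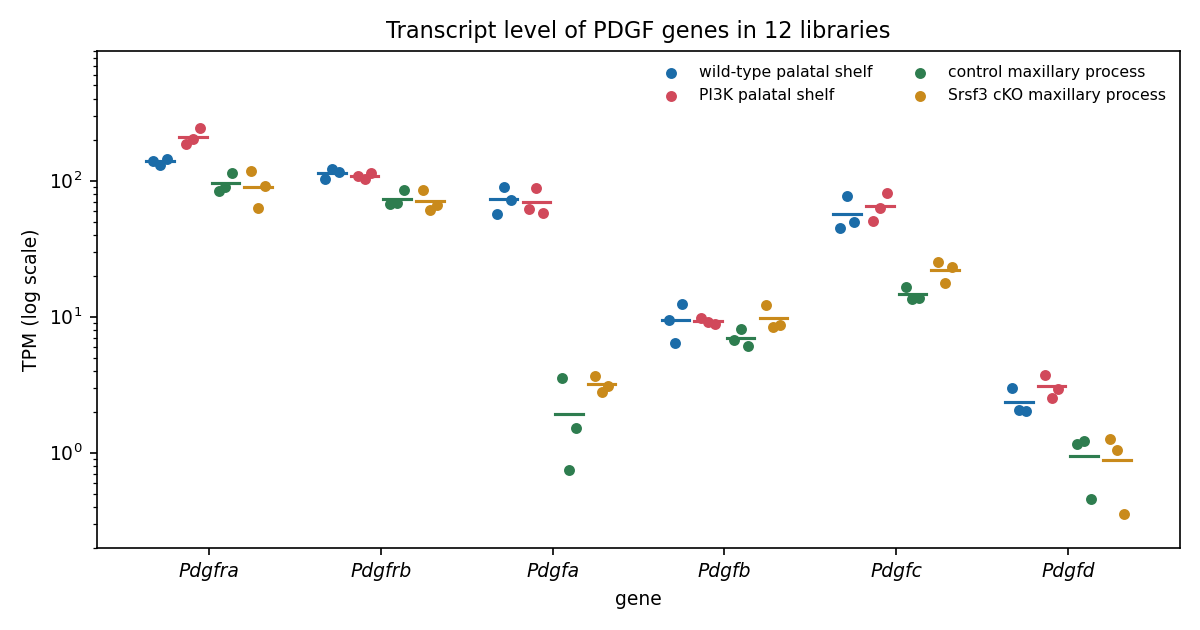
TPM of the 6 PDGF genes on a log axis, with 1 point for each of the 12 libraries and a bar at each group's mean of 3. Pdgfa lies at 57.0 to 89.5 TPM in palatal shelves and 0.745 to 3.69 TPM in maxillary processes, and Pdgfra in PI3K shelves lies above wild-type.

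The mix of ligand transcripts differed accordingly. In wild-type palatal shelves Pdgfa made up 51.4% ± 1.5 and Pdgfc 39.8% ± 3.8 of ligand TPM (SD, n = 3), out of 114 to 175 TPM in all. In control maxillary processes Pdgfc made up 59.9% ± 3.0, Pdgfb 28.7% ± 5.3 and Pdgfa 7.59% ± 4.8 (SD, n = 3) of 21.8 to 28.0 TPM. Receptor TPM was 1.83 ± 0.35 times ligand TPM in wild-type palatal shelves and 7.06 ± 1.9 times in control maxillary processes (SD, n = 3). In Srsf3 cKO libraries ligand TPM came to 30.1 to 42.3, above the control range, and receptors were at 4.44 ± 0.34 times ligands (SD, n = 3). Neither was tested. Of single genes, 17.1% had TPM ranges that did not overlap between the maxillary groups, 6.19% with Srsf3 cKO higher.

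Within both maxillary groups, the 2 receptor genes ranked the libraries in the same order, but within the palatal groups they did not. In wild-type palatal shelves Pdgfra was at 503, 470 and 501 CPM and Pdgfrb at 319, 372 and 351 CPM, the opposite order. After the group means were subtracted, log2 CPM of Pdgfra and Pdgfrb had a Pearson r of 0.82 over 12 libraries, not split by tissue. By the same measure, r between Pdgfra and the ligand genes lay between -0.02 and 0.33. Among 10604 candidate genes, those most like Pdgfra were Shprh (r = 0.99), Mdga1 (0.96) and Efnb3 (0.96), and those most like Pdgfrb were Rgma (0.97), Pxdn (0.96) and Cadm4 (0.95). Pdgfb was most like Mmp2 (0.92), Pdgfc most like Zfp384 (0.94), Pdgfd most like Pecr (0.97) and Pdgfa most like Pold2 (0.87). These pooled values are the highest of many r values over few libraries that share depth and dissection, and they describe these libraries only. Split by tissue, r with Pdgfrb was 0.73 for Pxdn and 0.76 for Cadm4 in the palatal shelf, against 0.99 and 0.98 in the maxillary process. Rgma was at 0.96 and 0.97, and Efnb3 with Pdgfra at 0.82 and 0.99. Zfp384 with Pdgfc went the other way, at 0.99 and 0.84.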

How the data were processed

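Polyadenylated RNA was sequenced from 12 libraries. The submitters' processing notes name Salmon 1.1.0, STAR 2.7.0, DESeq2 1.28.1 and build mm10, and the deposited tables hold the authors' Salmon estimated counts for each gene. The deposited TPM tables hold the authors' Salmon values corrected for length and depth. The transcript index and use of strand are not given in the sources used here. Pdgfra, Pdgfa, Pdgfb, Pdgfc and Pdgfd overlap other annotated genes, so some of their reads could belong to those. Symbols and transcripts came from GENCODE M21 (GRCm38): 53355 identifiers matched and 37 did not.

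Rounded counts went into edgeR 4.0.16, run under R 4.3.3 (quasi-likelihood test, TMM, filterByExpr, Benjamini-Hochberg over all genes, threshold 0.05), each comparison on its own 6 libraries. Effective length was log2 of count over TPM, centred on each library's median gene, for genes with at least 50 counts in all 6 libraries, tested with limma 3.58.1. DESeq2 1.42.0 was an alternative. Lengths in nt used genes with 1 annotated transcript of 1000 to 10000 nt, of which 98.9% came within 5% of their annotated length. That conversion, and the bounds on the share of long transcripts, were chosen after seeing the data. The edgeR test without a block and the limma test of effective length were tried on simulated data, and the alternatives were not.

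The members and gene lists were chosen with earlier results of these data known. Named genes were the 6 PDGF genes, Srsf3, and in each list those past the threshold or else among the 3 with the smallest p. Some list members are not reported here. Likeness was ranked among genes of at least 5 CPM. Deviations of same-numbered maxillary libraries correlated weakly (0.101, 0.125 and 0.267), which meets the rule for pairing narrowly. Correlations between differently numbered libraries were not taken. The printed maxillary values come from the fit without a block, and the blocked count is given where it differs by over 1.5 times. No 2 replicates agreed within sampling noise (chi-square per degree of freedom 11.0 or more).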

Additional observations from a re-analysis of the deposited data

How the results depend on the processing

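The Pdgfra length difference in the palatal shelf lay between -0.59 and -0.57 in all 12 alternatives and passed the limma threshold in 7 (adjusted p 1.33e-05 to 0.6386). It was -0.58 (adjusted p 0.6386) with the replicate block, and -0.59 to -0.57 with 1 library left out. Same-numbered palatal libraries correlated at 0.551, 0.203 and -0.237 in their deviations. Differently numbered libraries were not compared, so these values cannot show whether the numbers pair the libraries there. Genes called for length in the palatal shelf numbered 31 without centring, 0 with the replicate block and 0 to 1 with 1 library left out. In the maxillary process they numbered 3 at a minimum of 10 counts, 4 without centring, 0 with TPM-weighted centring, 0 with the replicate block, 3 with all 12 libraries and 0 to 5 with 1 library left out.

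For expression, DESeq2 called 4 palatal genes. Maxillary calls were 143 with no filter, 376 by DESeq2, 105 with all 12 libraries, 40 with the replicate block and 36 at a threshold of 0.1. With 1 library left out they were 2 to 29: 6, 2 and 3 without control 1, 2 and 3, and 29, 4 and 10 without Srsf3 cKO 1, 2 and 3. Pathway genes called in the maxillary process were 2 with no filter (Flt1, Kitl), 5 by DESeq2 (Flt1, Kdr, Kitl, Pcsk5, Pgf), 1 with all 12 libraries (Kitl) and 0 to 1 with 1 library left out (Kitl, without Srsf3 cKO 1). Pdgfc passed in the maxillary process with DESeq2 (0.64, adjusted p 0.02437) and in no other alternative.

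Several differences changed sign, among them the larger ones of Ier3 and Srf without 1 library. Palatal Pdgfb was 0.015 on log2(TPM + 1), 0.021 on log2(TPM + 0.1) and 0.0081 with the replicate block, and Srsf3 was 0.0018 on both TPM scales. Palatal lengths were -0.0056 for Pdgfrb and -0.0060 for Pdgfc without centring, and -0.0071 and -0.0075 with TPM-weighted centring. Maxillary Pdgfrb was 0.0004 with a filter at 1 CPM, Srsf3 was -0.16 on both TPM scales, and the Pdgfra length was 0.22 without centring. That shift was not particular to Pdgfra, as maxillary lengths reached 0.27 for Pdgfrb, 0.27 for Pdgfb and 0.275 for Pdgfc across the alternatives. With 1 library left out, palatal log2 differences ranged from -0.065 to 0.099 for Pdgfra, -0.11 to 0.0001 for Pdgfrb, -0.23 to 0.19 for Pdgfa, -0.22 to 0.18 for Pdgfb, -0.15 to 2.47 for Ier3, -0.081 to 1.29 for Srf and -0.089 to 0.0024 for Srsf3. Palatal lengths ranged from -0.0003 to 0.0108 for Pdgfrb, -0.038 to 0.020 for Pdgfb and -0.0033 to 0.0093 for Pdgfc. Maxillary differences ranged from -0.32 to 0.11 for Pdgfra, -0.17 to 0.090 for Pdgfrb, -0.53 to 0.14 for Pdgfd, 0.40 to 1.276 for Pdgfa, 0.34 to 0.69 for Pdgfb, -0.0085 to 1.08 for Ier3 and -0.074 to 0.17 for Srsf3, and lengths from -0.0008 to 0.0108 for Pdgfb and -0.0019 to 0.0203 for Pdgfc. The cause was not tested. The count of PDGF genes whose tissue ranges do not overlap was 5 to 6 in alternatives chosen after seeing the data. Maxillary Pdgfa and Pdgfd rest on under 70 counts a library.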
